A study of Mus musculus with 17 samples.

Results

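The synaptic vesicle and release machinery is described here by 29 mouse genes chosen by name and function, with no measured value in the rule. The choice was made with earlier results of these data known. The members are 4 SNARE genes, 6 synaptotagmins, 3 synapsins, 4 genes of vesicle membrane proteins, 3 Rab3 GTPases, 2 complexins, 4 active zone genes and 3 genes of SNARE disassembly. All 29 had a row among the 52373 gene identifiers that both sequencing batches share, and all 29 passed the filter on low values in every comparison.

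Neurons store transmitter in vesicles that dock at the active zone of the presynaptic membrane. A vesicle SNARE zips together with SNAREs of the plasma membrane, a synaptotagmin that binds calcium triggers fusion, and NSF with its SNAP adaptors then takes the spent SNARE complex apart. Most of these genes are strongly neuronal, and the corpus callosum is a white matter tract of axons and glia with few neuronal cell bodies.

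The RNA came from ribosomes pulled down by an HA tag from micro-dissected corpus callosum of male GFAP-Cre+/- Rpl22HA/wt mice, in which Cre expressed from a GFAP promoter switches on a tagged ribosomal protein. Mice entered the study at 8 to 9 weeks of age. Treated mice ate chow with 0.2% (w/w) cuprizone, a copper chelator that kills oligodendrocytes, for 5 weeks. They were sampled then, or after return to normal chow at 5.5 or 7 weeks in all, and age-matched mock mice stayed on a normal diet. All groups carry the Cre and the tag, and the labels do not say whether animals were pooled. A GFAP promoter is also active in the radial glia that give rise to neurons during development, which limits how far this driver marks astrocytes alone. Total RNA from the same tissue was not analysed here, so enrichment over the input is not known.

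Of 17 deposited libraries, 9 were counted and 8 were set aside as repeats of another library of their group. In 11 of 136 pairs of libraries, all within a group, 46.8% to 96.8% of genes with at least 500 counts differed by 10 counts or fewer, against at most 4.25% in the other pairs. In the 8 repeats, 170 of 232 member values lay 1 to 10 counts above those of the library they repeat. This left 1 cuprizone and 1 mock library at 5 weeks, 3 and 2 at 5.5 weeks, and 1 and 1 at 7 weeks. The 5-week libraries form batch 1 of the labels and the others batch 2. Total counts ran from 20797535 to 30400048. The 7-week cuprizone library stands apart, with a count for 34576 genes against 19496 to 23980 in the other 8 libraries.

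The labels call the cells astrocytes, and astrocyte RNA was present: Gfap ranged from 889 to 9188 CPM (a count scaled for the depth of its library, here with the trimmed mean of M values, TMM, over the 9 libraries) and Aldh1l1 from 103 to 160.4. Neuronal RNA was present in every library as well. Rbfox3, which encodes the neuronal nuclear protein NeuN, ranged from 344 to 623 CPM, Tubb3 from 271 to 549 and Map2 from 339.7 to 559. The 22 neuronal markers together held 8867 to 14015 CPM, the 12 astrocyte markers 10435 to 18796 and the 10 oligodendrocyte markers 9951 to 23675.5. Endothelial markers held at most 5.83 CPM and microglial markers at most 41.6 in 8 libraries, against 183 and 548 in the 7-week cuprizone library. Which cells the member transcripts came from was not tested.

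Promoter windows are shown for 4 members because their levels part ways below: Sv2a and Syp had some of the lowest 5-week ratios, whereas Stx1a and Syn1 stayed within 2-fold. Each is the 250 bases before the annotated start from RefSeq (GRCm38.p6), written 5′ to 3′ on the strand of the gene. Capitals mark matches, on either strand, to a GC box (GGGCGG), to the cyclic AMP response element TGACGTCA, or to TTCAGCACC, the left arm of the RE1 element bound by the repressor REST. No match overlaps another in these windows. They lie at chr3:96180977-96181226 (plus strand), chrX:7638330-7638579 (plus), chr5:135023232-135023481 (plus) and chrX:20920919-20921168 (minus).
Sv2a: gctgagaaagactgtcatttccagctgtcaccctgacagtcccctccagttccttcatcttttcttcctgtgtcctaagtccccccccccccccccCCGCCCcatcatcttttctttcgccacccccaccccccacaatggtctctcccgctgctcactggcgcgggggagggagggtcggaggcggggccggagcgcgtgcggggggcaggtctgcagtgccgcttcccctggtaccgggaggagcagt
Syp: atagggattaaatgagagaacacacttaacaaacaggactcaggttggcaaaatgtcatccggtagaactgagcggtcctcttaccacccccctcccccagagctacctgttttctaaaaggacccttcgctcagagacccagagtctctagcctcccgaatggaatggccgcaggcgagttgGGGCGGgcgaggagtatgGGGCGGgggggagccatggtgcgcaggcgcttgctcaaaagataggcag
Stx1a: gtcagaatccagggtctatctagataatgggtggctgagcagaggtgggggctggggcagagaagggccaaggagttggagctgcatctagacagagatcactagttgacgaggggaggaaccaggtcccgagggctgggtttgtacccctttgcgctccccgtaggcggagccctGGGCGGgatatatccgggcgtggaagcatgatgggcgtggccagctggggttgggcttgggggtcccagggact
Syn1: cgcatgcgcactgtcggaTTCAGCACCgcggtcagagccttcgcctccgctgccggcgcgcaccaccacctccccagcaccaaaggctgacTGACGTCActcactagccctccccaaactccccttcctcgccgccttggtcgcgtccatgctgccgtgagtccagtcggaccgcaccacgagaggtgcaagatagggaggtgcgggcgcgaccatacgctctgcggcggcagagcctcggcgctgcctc
RefSeq windows were matched for 23 of the 29 members, some with several starts, 30 windows in all. A GC box stood in 18 of these 30 windows and in 32.74% of all 32851 windows of this length. The response element and the RE1 arm were each found in 1 member window, that of Syn1, against 1.546% and 0.3014% of all windows. A match is a description of the letters and not a bound site.

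Per kilobase of exon, the members covered a wide range of levels, and the core fusion genes stood near the top of all genes. Snap25, the plasma membrane SNARE held by palmitoyl anchors, had the highest median, 803 CPM per kb, above 99.9% of genes that reach 1 CPM. Rab3a, the main Rab3 GTPase of brain vesicles, followed with 508 CPM per kb and Vamp2, synaptobrevin 2 of the vesicle membrane, with 429. The libraries of these 3 overlapped, at 477 to 1248, 339 to 635 and 238 to 522 CPM per kb. Cplx2 (350.0) and Cplx1 (257), complexins that clamp assembled SNAREs, came next by median CPM per kb. Then came Syn1 (211), Syt11 (204), Napa (200.1), Nsf (192) and Stx1a (167).

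Paralogs of 1 family differed widely in level. Among the calcium sensors, Syt1 had a median of 140.1 CPM per kb and Syt2, which dominates in brainstem and in parvalbumin interneurons, 1.40, and their libraries did not overlap. Sv2a (64.1) and Sv2b (38.5) stood above Sv2c (1.30), the form best known from basal ganglia. Syn1 and Syn2 (36.7) stood above Syn3 (0.695), the lowest member. The scaffolds of the active zone were low per kilobase: Rims1 8.86, Unc13a 6.32, Bsn 5.88 and Pclo 2.73. Some members share exon sequence with other genes, most of all Syn3 with Timp3 (1733 bases), Pclo with Gm26918 and Gm26954 (925) and Syp with Gm14703 (875). How strand was treated in counting is not given in the sources used here, so reads of such stretches cannot be assigned to one gene.

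**Figure D1:**
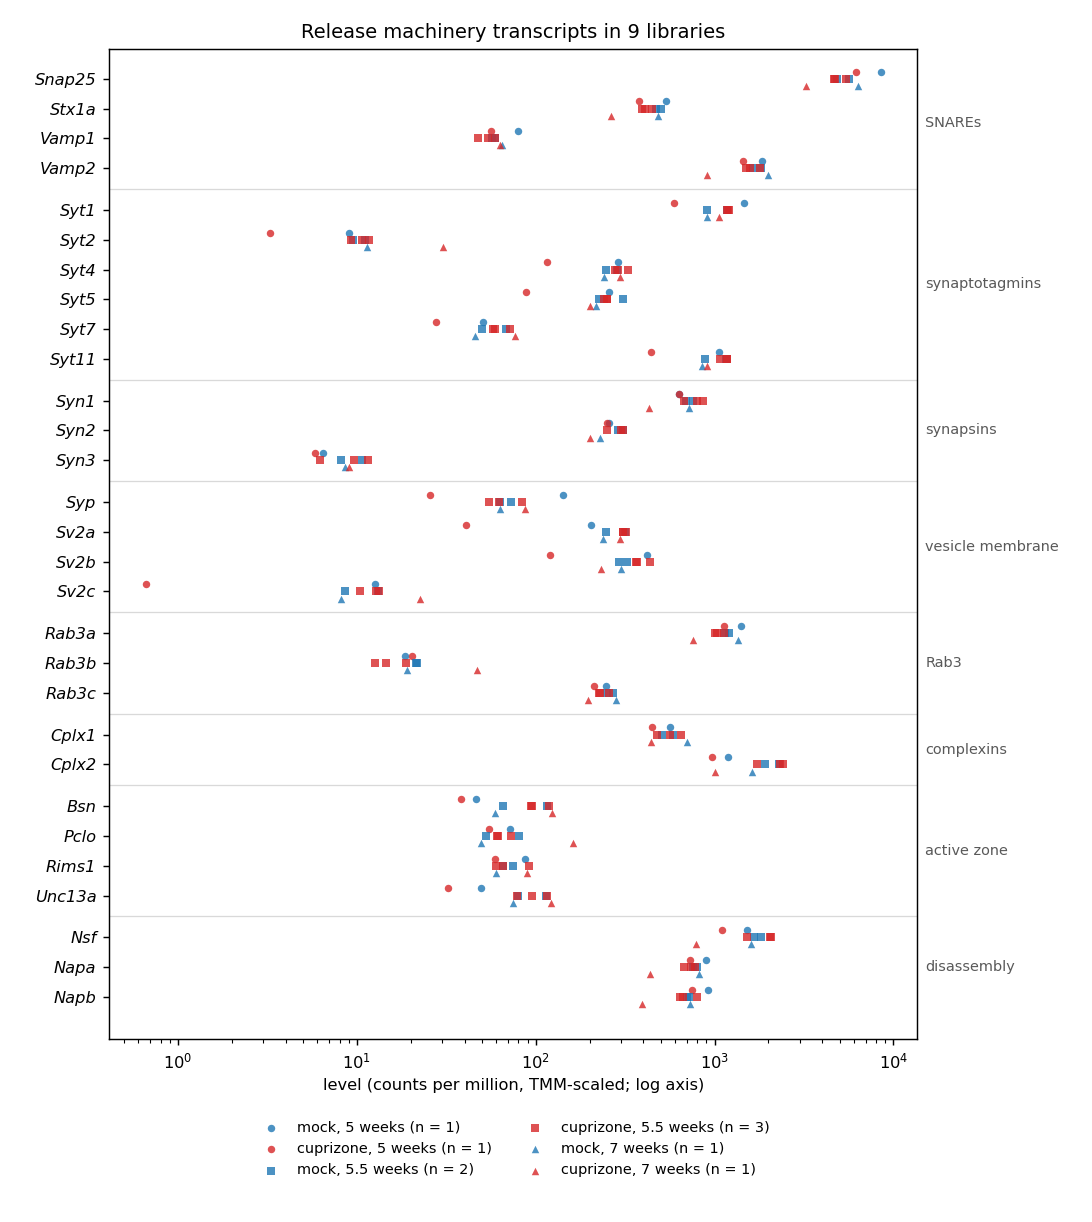
Level of each member in the 9 libraries, in TMM-scaled CPM on a log axis; rows are genes grouped by role, points are libraries, blue mock and red cuprizone, with circles for 5, squares for 5.5 and triangles for 7 weeks. The 5-week cuprizone library (red circle) is the lowest of the 9 for 15 of the 29 members. These are all 6 synaptotagmins, all 4 vesicle membrane genes and 5 members of other roles.

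The 29 members together held 2.23% of counts in the 5-week mock library and 1.74% in the 5-week cuprizone library. At 5.5 weeks they held 1.91% and 1.87% of counts in mock and 1.87%, 1.77% and 2.01% after cuprizone. At 7 weeks the shares were 1.88% in mock and 1.52% after cuprizone. On the TMM scale the sum at 5.5 weeks was 19544 ± 189 CPM (SD, n = 2) in mock and 19500.3 ± 1335 (SD, n = 3) after cuprizone, so the groups overlapped (exact permutation test, two-sided, p = 1, where 3 against 2 libraries cannot go below 0.2). At 5 and 7 weeks the cuprizone sums lay below mock by 0.51 and 0.64 on the log2 scale, with 1 library on each side and no test. In these bulk precipitates, fewer neuronal ribosomes in the pull-down and less of these transcripts per cell cannot be told apart. Snap25 alone made up 24.1% to 38.7% of the sum.

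Summed by role, the log2 ratio at 5 weeks was -2.06 for the vesicle membrane genes and -1.30 for the synaptotagmins, and from -0.47 to -0.00 for the other 6 roles. At 5.5 weeks the role sums ran from -0.16 (Rab3) to 0.23 (vesicle membrane). At 7 weeks they ran from -0.99 for the SNAREs and -0.96 for disassembly to 1.03 for the active zone.

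The mock libraries themselves differed between weeks in several members. Syp had 142 CPM in the 5-week mock library and 72.8 and 63.3 and 62.9 in the mock libraries of 5.5 and 7 weeks. Cplx2 had 1192 at 5 weeks, 2297 and 1926 at 5.5 weeks and 1620.2 CPM at 7 weeks, and Unc13a 49.5, 114 and 79.8 and 74.2. The 5-week libraries belong to the other batch, so week and batch cannot be told apart in these levels, and each comparison below sets cuprizone against mock of its own week.

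At 5 weeks, the end of cuprizone feeding, all 4 genes of the vesicle membrane role (Syp, Sv2a, Sv2b and Sv2c) and 5 of the 6 synaptotagmins were at least 2-fold lower after cuprizone than in mock, and the members of the other 6 roles, the vesicle SNAREs Vamp1 and Vamp2 among them, stayed within 2-fold. Of the 29 members 9 were at least 2-fold lower and 0 were 2-fold higher, where 13.0% of the 11498 genes measured were 2-fold lower and 7.92% higher. Measured means at least 5 CPM in 1 of the libraries compared. Sv2c and Syt2 reached this level in mock alone, so their call depends in part on how they passed the filter. Among the 27 members at 5 CPM in both libraries 7 were 2-fold lower and 0 higher, where 1024 of 10193 such genes were lower and 472 higher. The median log2 ratio was -0.46 over members and -0.06 over all measured genes. With 1 independent library a group this comparison has no replicate check, and the intervals below (95%, exact Clopper-Pearson) cover counting error only. Each of the 9 stayed at least 2-fold lower with library totals, with DESeq2 size factors, with TMM within the week and with the mean of the deposited libraries.

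The vesicle membrane genes showed the widest gaps. Synaptophysin (Syp), a multi-span protein used as the standard marker of synaptic vesicles, was at 142 CPM in mock and 25.7 after cuprizone, 5.52-fold lower (95% interval 5.05 to 6.04). Sv2a, the vesicle glycoprotein that binds the drug levetiracetam, was at 205 and 40.5 CPM, 5.06-fold lower (4.71 to 5.43). Its paralog Sv2b was at 418 and 120.0 CPM, 3.48-fold lower (3.33 to 3.64). All 3 cuprizone values lay below every other library of the series: elsewhere Syp ranged from 54.7 to 142 CPM, Sv2a from 205 to 321 and Sv2b from 230.4 to 436. Sv2c was rare, with 261 counts in mock and 15 after cuprizone, a 19.0-fold gap (11.3 to 34.5).

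Of the 6 synaptotagmins, 5 were more than 2-fold lower as well. Syt1, the sensor for fast release, was at 1461 CPM in mock and 594 after cuprizone, 2.46-fold lower (2.41 to 2.51). Syt11, a family member that does not bind calcium, was at 1060.2 and 440.4 CPM, 2.41-fold lower (2.35 to 2.47). Syt4 (288 and 115 CPM, 2.5-fold), Syt5 (258 and 88.3, 2.92-fold) and the rare Syt2 (9.05 and 3.26, 2.78-fold) had gaps of like size. Syt7, the sensor linked to asynchronous release and facilitation, was at 51.0 and 27.5 CPM, 1.85-fold lower, just under the fold counted. The 5-week cuprizone library was the lowest of all 9 for each of the 6 synaptotagmins, and for 15 of the 29 members in all.

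The other roles stayed within 2-fold at 5 weeks. Among the SNAREs, Snap25 was at 8473 CPM in mock and 6180.1 after cuprizone, 1.37-fold lower (1.36 to 1.38). Vamp2 (log2 ratio -0.36), Stx1a (-0.49) and Vamp1 (-0.50) were close to it. The synapsins, peripheral phosphoproteins that tether vesicles to one another, were level: Syn1 had 629.7 CPM in mock and 634 after cuprizone, and the log2 ratios of Syn2 and Syn3 were -0.04 and -0.15. Rab3a (-0.32), Rab3c (-0.22), Cplx1 (-0.34) and Cplx2 (-0.30) had small negative log2 ratios, and Rab3b a positive one (0.13). The active zone genes ran from -0.28 (Bsn) to -0.62 (Unc13a, the priming factor Munc13-1), and Nsf, Napa and Napb from -0.29 to -0.46.

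Sorted by how the protein meets the membrane, the members separated at 5 weeks. This sorting was drawn up from textbook knowledge after the ratios had been seen, and no test of it was run. Of 10 members with a transmembrane segment other than a C-terminal tail anchor, the 6 synaptotagmins and the 4 vesicle membrane genes, 9 were at least 2-fold lower, with a median log2 ratio of -1.50 (range -4.07 to -0.89). Without Sv2c and Syt2 it was 7 of 8, with a median of -1.43 (-2.46 to -0.89). The 3 tail-anchored members, Stx1a, Vamp1 and Vamp2, had a median of -0.49 (-0.50 to -0.36) and none was 2-fold lower. The 16 members with no transmembrane segment had a median of -0.30 (-0.62 to 0.13) and none was 2-fold lower.

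**Figure D2:**
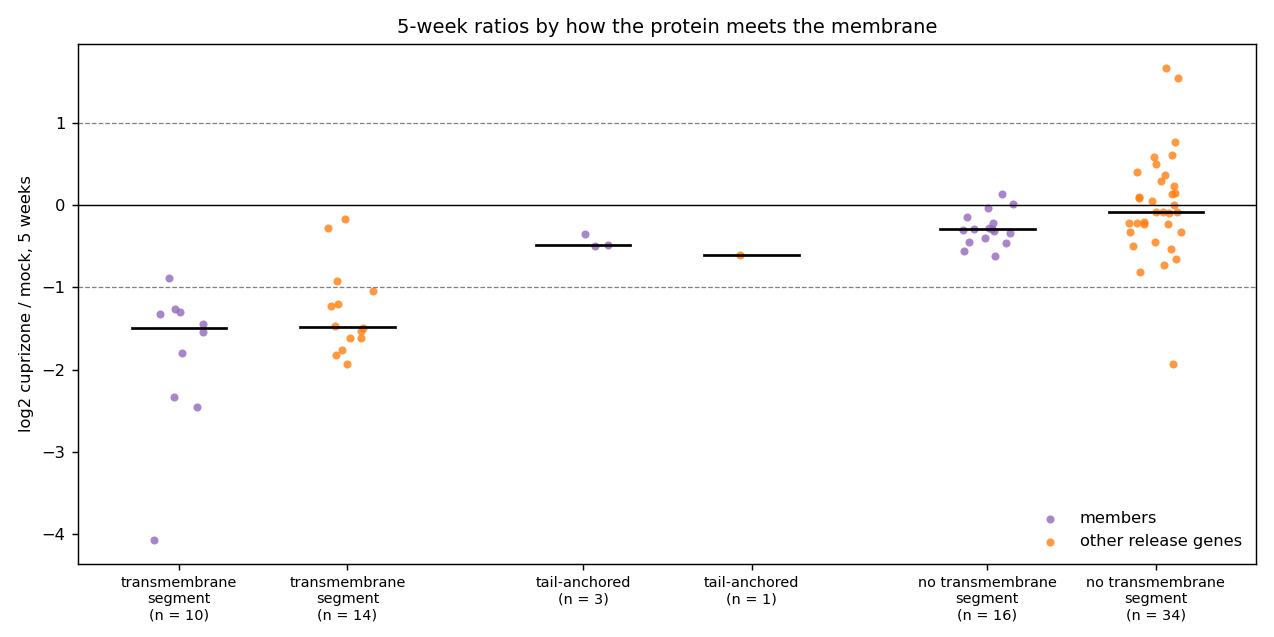
Log2 ratio of cuprizone to mock at 5 weeks (y axis) for members (purple) and the other release and vesicle transporter genes (orange), sorted along x by how the encoded protein meets the membrane; each point is a gene, black bars are medians and dashed lines mark 2-fold. Members with a transmembrane segment have a median of -1.50 and those without one -0.30.

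Release genes outside the 29 parted the same way, which is a description of the same pair of libraries. Of 14 measured transmembrane genes among them 11 were at least 2-fold lower (median -1.48), and of 34 without such a segment 1 was lower and 2 higher (median -0.08). Among those at 5 CPM in both libraries 10 of 13 transmembrane genes were lower, and of 31 without a segment 0 were lower and 1 higher. The vesicular glutamate transporters Slc17a7 (239 CPM in mock, 67.2 after cuprizone) and Slc17a6 (25.2 and 6.52) were both lower. So were Syngr3, a synaptogyrin (266 and 86.5 CPM), and Syt12 (20.6 and 5.99). The exception without a transmembrane segment was Cplx3 (9.34 and 2.38 CPM), and the higher genes were Rab3d (4.91 and 15.8) and Tprgl, a vesicle-associated protein (41.0 and 119.9). The measured transmembrane genes that stayed within 2-fold were all synaptotagmins: Syt3 (log2 ratio -0.92), Syt10 (-0.28) and Syt6 (-0.16).

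The split was not confined to release genes. Over the whole measured table, 44.2% of the 199 genes whose symbol begins with Slc, the solute carriers, were at least 2-fold lower, as were 38.3% of the 162 named Tmem, against 13.0% of all. Of the 22 neuronal markers 3 were 2-fold lower and 1 higher, where 13.0% and 7.92% of all measured genes were, with a median log2 ratio of -0.41. The lower ones included Scn2a (251 and 88.3 CPM) and Thy1 (381 and 158 CPM), which encode surface proteins. The higher one was Reln (2.41 and 5.29 CPM), which reached 5 CPM in the cuprizone library alone. Stmn3 (902 and 474 CPM) and Elavl4 (196 and 109) were lower by less than 2-fold. Rbfox3 (623 and 527 CPM) and Map2 (460.3 and 559) differed less. Camk2a, a cytosolic kinase of excitatory neurons, was higher by less than 2-fold (1837 and 2921). The neuronal list summed to 13211 CPM in mock and 10579.5 after cuprizone. The interneuron list summed to 76.3 and 77.0, with Sst (13.4 and 4.14 CPM) and Pvalb (18.1 and 7.01) lower and Dlx1 (1.25 and 5.51) higher. Gad1 (24.7 and 43.5 CPM) was higher by less than 2-fold. Sst reached 5 CPM in mock alone and Dlx1 in the cuprizone library alone, so their call depends in part on how they passed the filter. Oligodendrocyte markers summed to 15640.3 CPM in mock and 9951 after cuprizone, and 6 of 10 were 2-fold lower, among them Mal (626 and 29.7), Opalin (212 and 33.3) and Mog (361 and 61.8). Astrocyte markers summed to 10435 and 18796 CPM, of which Gfap made up 889 and 9188. The part of these shifts in the members' ratios was not tested.

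At 5.5 weeks, shortly after cuprizone was withdrawn, no member of the release machinery passed the test between the 3 cuprizone and the 2 mock libraries, and differences of 2-fold or more lay outside every member's interval. In edgeR's quasi-likelihood test with Benjamini-Hochberg adjustment over 16086 genes, 0 of 29 members passed an adjusted p of 0.05, where 1.08% of genes were called higher and 0.392% lower. DESeq2 and limma-voom also called 0 members. At an unadjusted p under 0.05 the edgeR count was 2 members, where 10.9% of genes reached it. Without mock replicate 1 that count was 6, and without cuprizone replicate 1 or 3 it was 1. The members' log2 fold changes were positive in 14 and negative in 15, with a median of -0.01 against 0.00 over all genes tested. The members' median was 0.16 without mock replicate 1 and -0.08 without mock replicate 3. All 29 95% intervals lay within 2-fold and 26 lay within 1.5-fold, with bounds from -0.86 to 0.64 on the log2 scale. The libraries of the groups did not overlap for 4 members, Stx1a, Rab3a and Rab3b lower and Sv2b higher, where this held for 28.0% of all genes.

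Of the transcripts that were 2-fold lower at 5 weeks, Syp, Sv2a and Syt1 had overlapping groups here, whereas Sv2b, given below, did not overlap and lay higher after cuprizone. Syp was at 72.8 and 63.3 CPM in mock and 54.7, 84.2 and 62.3 after cuprizone, with a log2 fold change of -0.02 ± 0.17 (SE). Sv2a was at 315 and 247 in mock and 321, 308 and 306 CPM after cuprizone (0.15 ± 0.12), and Syt1 at 1168 and 913 and 1186, 1204 and 1174 (0.19 ± 0.13). For all 3 genes the groups overlapped. Snap25, at 4826 and 5647 CPM in mock and 4736, 4659.9 and 5456 after cuprizone, overlapped too (-0.08 ± 0.12).

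Rab3b and Sv2b had the smallest p-values of the members. Rab3b, a Rab3 form known from pituitary and from some neurons, was at 21.5 and 21.4 CPM in mock and 12.7, 18.7 and 14.6 after cuprizone, with each cuprizone library below both mock libraries. The library set aside as a repeat of mock replicate 1 held 416 Rab3b counts against 606 in the library it repeats. Its log2 fold change was -0.49 ± 0.17 (SE, edgeR adjusted p = 0.272), and without cuprizone replicate 2 it was -0.66 with an adjusted p of 0.0401. With the mean of mock replicate 1 and its repeat it was -0.37, and with all 6 libraries as deposited -0.32. Sv2b was at 323 and 292 CPM in mock and 368, 363 and 436 after cuprizone, each cuprizone library above both mock libraries (0.33 ± 0.12, edgeR adjusted p = 0.298). Stx1a, the syntaxin of the fusion complex, was at 470.3 and 504 and 395, 445 and 406 CPM (-0.23 ± 0.11, edgeR adjusted p = 0.466).

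The remaining roles gave small log2 fold changes of either sign at 5.5 weeks. The synaptotagmins ran from -0.12 (Syt5) to 0.19 (Syt1), the synapsins from -0.06 (Syn2) to 0.09 (Syn1), and the complexins were at 0.03 (Cplx1) and 0.02 (Cplx2). The active zone genes ran from -0.04 (Pclo) to 0.16 (Bsn) and the disassembly genes from -0.10 (Napa) to 0.10 (Nsf). Vamp1 and Vamp2 were at -0.12 and -0.09, Rab3a and Rab3c at -0.16 and -0.14, and Sv2c at 0.15. Bsn shows how wide single members could spread within a group, with 116 and 66.0 CPM in mock and 93.7, 118 and 95.1 after cuprizone. The widest interval was that of Syn3, the rarest member, from -0.56 to 0.47.

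Among the release genes outside the 29, 0 of 48 passed the test at 5.5 weeks. An unadjusted p under 0.05 was reached by 4 of them, where 10.9% of all genes reached it. The median log2 fold change over the 48 was 0.08. No vesicular transmitter transporter (0 of 5 tested) and no SNARE gene of broad expression (0 of 14) passed either. Of the neuronal markers 0 of 22 passed, whereas Gfap was higher, at 1208 and 1156 CPM in mock and 6349, 5389.6 and 5110.5 after cuprizone (log2 fold change 2.24, edgeR adjusted p = 8.59e-06). Within a group, 0 members differed 2-fold between any pair of 5.5-week libraries, where 10 to 55 of all genes did so in such pairs.

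**Figure D3:**
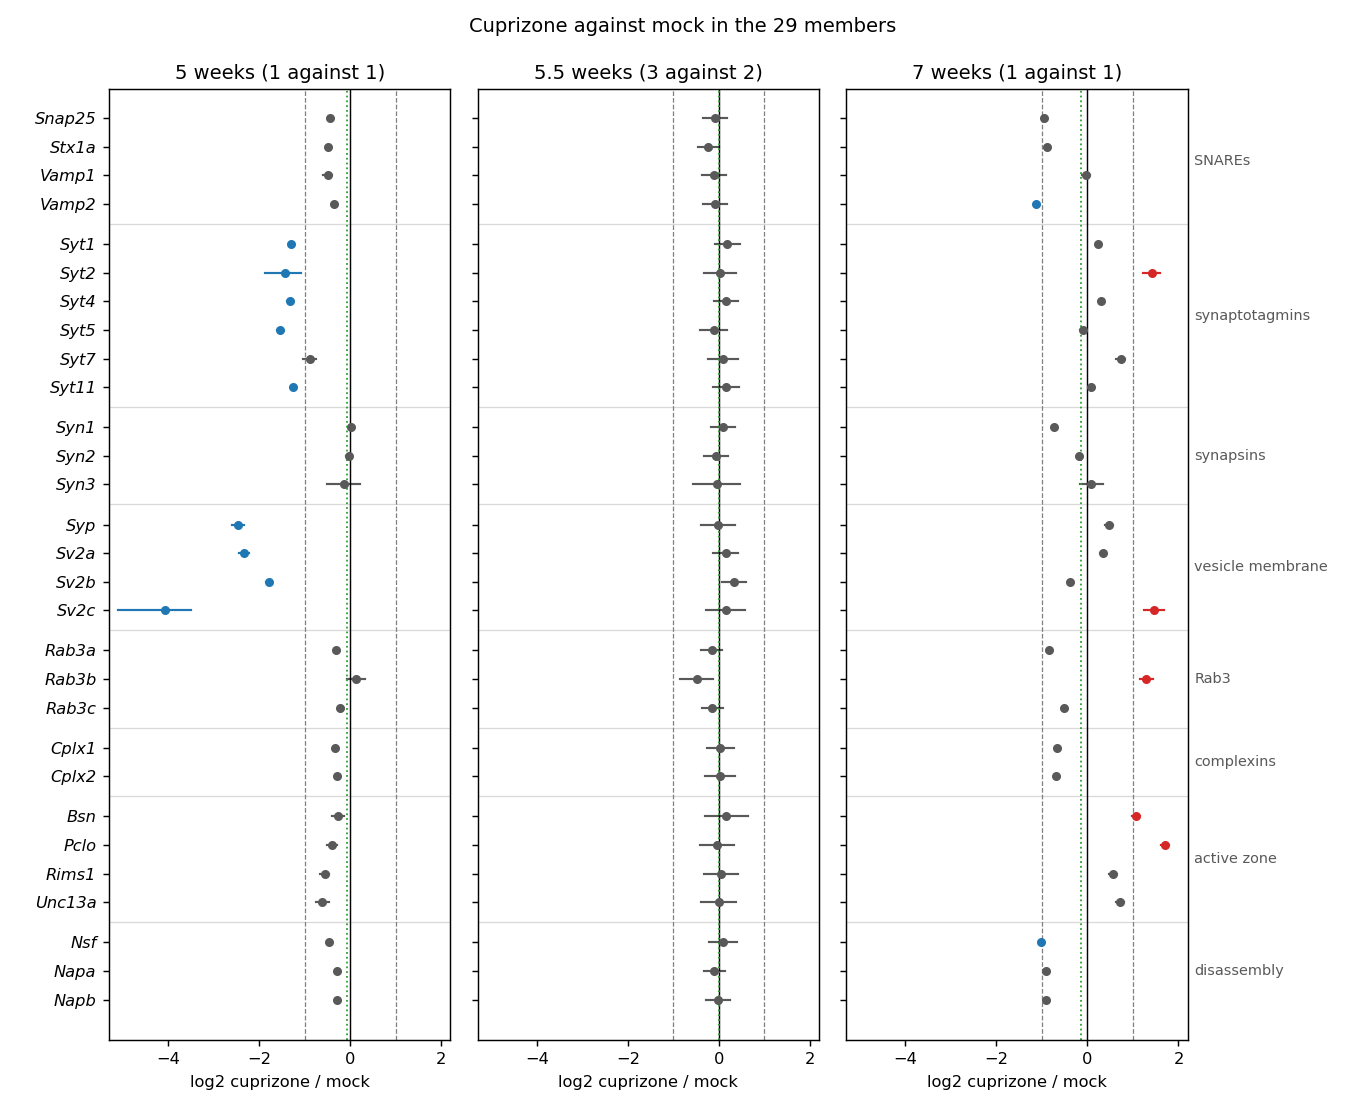
Log2 ratio of cuprizone to mock for the 29 members (rows, grouped by role) at 5, 5.5 and 7 weeks, with 95% intervals (counting error at 5 and 7 weeks, edgeR at 5.5 weeks); dashed lines mark 2-fold, the green dotted line is the median of all genes, and blue and red mark members at least 2-fold lower or higher at 5 and 7 weeks. At 5.5 weeks all 29 intervals lie within 2-fold.

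At 7 weeks, after 2 weeks on normal chow, members differed in both directions between the 2 libraries: Pclo, Bsn, Sv2c, Syt2 and Rab3b were at least 2-fold higher after cuprizone and Vamp2 and Nsf lower. A difference of 2-fold or more was seen in 7 of 29 members, 5 higher after cuprizone and 2 lower, where 10.9% of 12074 measured genes were higher and 3.56% lower. This comparison rests wholly on the cuprizone library that stands apart, and no cuprizone library is left at 7 weeks without it. Scaling matters here, since the median of all genes was -0.14 with TMM over 9 libraries, 0.20 with library totals and -0.23 with TMM within the week, and the members' median was -0.03. With library totals the count became 7 higher, with Syt7 and Unc13a added, and 0 lower, and Vamp1, Syt5 and Syn2 turned positive. With TMM within the week it became 4 higher and 3 lower.

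The higher members came from several roles. Pclo, which encodes the giant scaffold piccolo, was at 49.5 CPM in mock and 162 after cuprizone, 3.28-fold higher (95% interval 3.09 to 3.48). Bsn, for its partner bassoon, was at 58.9 and 123 CPM, 2.08-fold higher. In the other 7 libraries Pclo ranged from 52.9 to 80.4 CPM, so its cuprizone value lay above every other library. For Bsn, mock replicate 1 and cuprizone replicate 2 of 5.5 weeks came close to the 7-week cuprizone value, at 116 and 118 CPM. Sv2c (8.19 CPM in mock and 22.6 after cuprizone, 2.75-fold), Syt2 (11.4 and 30.4, 2.67-fold) and Rab3b (19.2 and 46.9, 2.45-fold) were each highest of all 9 libraries in this one. TMM within the week put Bsn at 0.97 on the log2 scale, just under 2-fold.

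Vamp2 and Nsf were the 2 members at least 2-fold lower. Vamp2 was at 1986 CPM in mock and 905 after cuprizone, 2.19-fold lower (2.16 to 2.23). Nsf, the ATPase that pulls SNARE complexes apart, was at 1603 and 789.6 CPM, 2.03-fold lower (2.00 to 2.06). This gap lies close to the fold counted and depends in part on which library was kept. Cuprizone replicate 1, set aside as a repeat, held 32887 Nsf counts against 23066 in the library used. Mock replicate 1, also set aside, held 47123 against 45618. The Nsf adaptors Napa and Napb had log2 ratios of -0.91 and -0.90, Snap25 -0.96 (6319 and 3239 CPM), Stx1a -0.88 and Rab3a -0.84. Library totals shrank these log2 ratios to -0.79 for Vamp2, -0.68 for Nsf and -0.63 for Snap25. The complexins (Cplx1 -0.67, Cplx2 -0.69), Syn1 (-0.74) and Rab3c (-0.52) had negative log2 ratios as well. Those of Rims1 (0.57), Unc13a (0.72) and Syt7 (0.73) were positive, and the other 10 members lay between -0.39 (Sv2b) and 0.47 (Syp). The cuprizone library was the lowest of all 9 for 11 members and the highest for 7.

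Transmembrane members were not the lower ones at 7 weeks. The 10 had a median log2 ratio of 0.32 (-0.39 to 1.45), with Syp at 62.9 CPM in mock and 86.8 after cuprizone and Sv2a at 236 and 297. The 16 without a transmembrane segment had a median of -0.59 and the 3 tail-anchored members -0.88.

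Markers of other cells also differed in this library. All 8 interneuron markers were at least 2-fold higher, where 10.9% of all measured genes were. Among them were Gad1 (42.1 CPM in mock and 229 after cuprizone), Gad2 (17.8 and 102) and Slc32a1, the vesicular GABA transporter (1.69 and 25.5). Slc32a1, Vip and Lhx6 reached 5 CPM in the cuprizone library alone, so their call depends in part on how they passed the filter. The interneuron list summed to 584 CPM there and to 76.3 to 102 in the other 8 libraries. Snhg11, a nuclear noncoding RNA of neurons, was at 31.3 CPM in mock and 1026 after cuprizone, but the neuronal list as a whole did not rise. Its 22 markers summed to 12545 CPM in mock and 8867 after cuprizone, with a median log2 ratio of -0.58. Among these 22, 2 were 2-fold higher and 1 lower, where 10.9% and 3.56% of all measured genes were. Of 8 excitatory neuron markers Neurod6 was 2-fold lower (428 and 122 CPM) and Tbr1 2-fold higher (34.2 and 68.6), with a median log2 ratio of -0.52 over the list. Endothelial Cldn5 (0.492 and 56.8 CPM) and microglial Cx3cr1 (3.87 and 98.3) were higher too, and both reached 5 CPM in the cuprizone library alone. The part of these cells and of nuclear RNA in the members' ratios was not tested.

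The 7-week ratios also followed exon length. Over the 29 members the correlation of the log2 ratio with log2 exon length was r = 0.49 (Spearman's rho 0.45) at 7 weeks and r = -0.05 at 5 weeks, across genes that share the same 2 libraries, given as a description. Pclo (22.46 kb) and Bsn (15.94 kb) are the longest members, and both were higher, whereas Rab3b (3.52 kb) was higher at a short length. Over all measured genes the median log2 ratio at 7 weeks went from -0.50 below 2 kb to 0.51 at 12 kb or more, where 26.1% were 2-fold higher. At 5.5 weeks the same bins ran from -0.12 to 0.10. The part of length in the members' ratios was not tested.

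**Figure D4:**
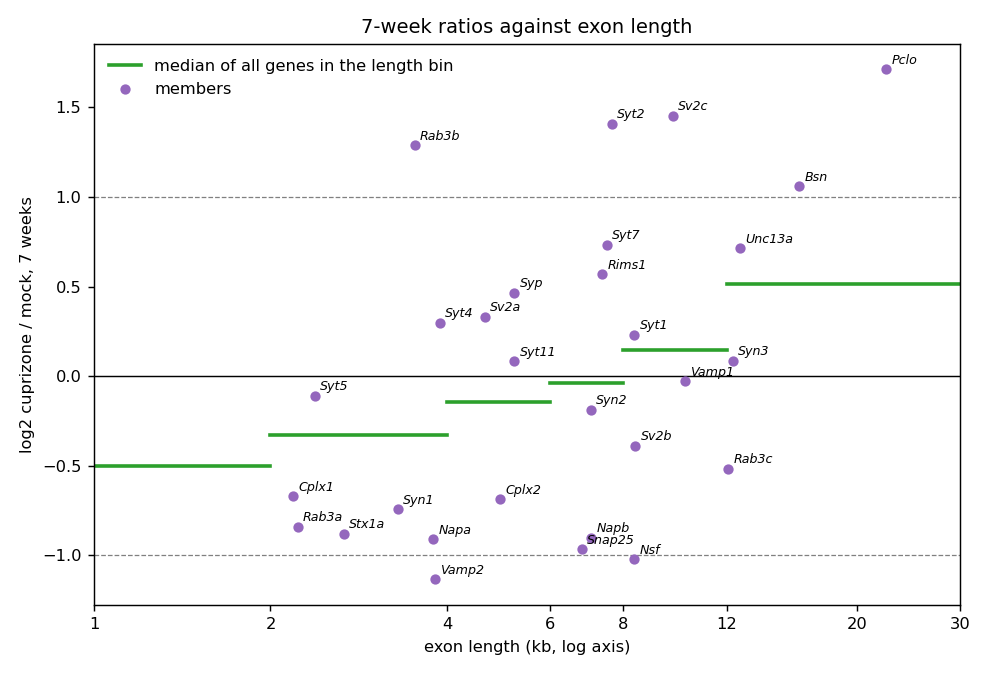
Log2 ratio of cuprizone to mock at 7 weeks (y axis) against exon length in kb (log x axis); purple points are the 29 members, green bars the median of all measured genes in each length bin, dashed lines 2-fold. The medians of all genes rise from -0.50 below 2 kb to 0.51 at 12 kb or more. No member is shorter than 2 kb, and the members' medians do not rise steadily. They are -0.74 at 2 to 4 kb, 0.21 at 4 to 6, 0.19 at 6 to 8, -0.03 at 8 to 12 and 0.72 at 12 kb or more.

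Release genes outside the 29 gave 4 higher and 3 lower of 47 measured at 7 weeks, where 10.9% and 3.56% of all measured genes were. The median log2 ratio was -0.13 over these release genes and -0.14 over all measured genes. The highest were Syndig1l (3.34 CPM in mock and 17.1 after cuprizone), Cplx3, a complexin of retina and deep cortex (8.82 and 28.3), and Unc13c, the Munc13 form of cerebellum (6.82 and 19.1). Of these, Syndig1l reached 5 CPM in the cuprizone library alone. The lower genes included Doc2b, a calcium sensor of spontaneous release (49.9 and 15.9 CPM) and Sh3gl2, the endocytic endophilin A1 (507 and 239).

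The effects of cuprizone at the 3 times were set against each other in 1 edgeR quasi-likelihood fit of the 9 libraries with a term per group. There the single libraries at 5 and 7 weeks take the spread of the 5.5-week groups, so the p-values rest on a borrowed spread. The fit called 11 members lower and 0 higher at 5 weeks, where 18.5% of 20292 genes were lower and 14.6% higher. They were the 10 transmembrane members and Stx1a. It called 7 members higher and 11 lower at 7 weeks, where 24.0% and 15.4% of genes were.

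The effect at 5 weeks lay below that at 5.5 weeks for 10 members, where 14.3% of genes had a lower and 8.91% a higher effect. These were the 6 synaptotagmins and the 4 vesicle membrane genes, with differences of effect from -0.99 (Syt7, edgeR adjusted p = 0.0108) to -4.40 (Sv2c, 1.51e-06). For Sv2a the difference was -2.50 ± 0.23 (SE, edgeR adjusted p = 5.88e-07) and for Syt1 -1.50 ± 0.23 (6.16e-05). No SNARE, synapsin, Rab3, complexin, active zone or disassembly gene passed. This comparison crosses the batches of the labels, which cannot be told apart from the week.

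The effect at 7 weeks differed from that at 5.5 weeks for 13 members within batch 2, higher for 4 and lower for 9, where 10.3% of genes were higher and 6.92% lower. The higher ones were Rab3b (1.79 ± 0.29, SE, edgeR adjusted p = 4.69e-04), Pclo (1.76, 9.74e-04), Syt2 (1.39) and Sv2c (1.32). The lower ones included Nsf (-1.12 ± 0.25, edgeR adjusted p = 0.00503) and Vamp2 (-1.04, 0.00399). With the size factors of DESeq2 10 members differed, 4 higher and 6 lower.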

How the data were processed

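The deposited files hold 1 whole-number count per gene identifier and library, made by the authors; per the submitters' processing notes FastQC 0.11.9, the aligner STAR 2.5.4b and the counter featureCounts 1.6.0 are named, as are both GRCm38/mm10 and GRCm39/mm39. Per the labels' protocols, precipitated RNA went into a low-input NEBNext library; strandedness and further settings are not given in the sources used here. Identifiers were named by GENCODE M21 (99.6% of batch 1, 94.1% of batch 2), whose exons gave the lengths. Members and gene lists were chosen with earlier results of these data known. Libraries that repeat another were counted once.

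At 5.5 weeks, edgeR 4.0.16 (R 4.3.3; filterByExpr with a minimum count of 10, TMM, robust quasi-likelihood, threshold 0.05) was fitted on 5 libraries. At 5 and 7 weeks, log2 ratios of CPM on the TMM scale (2 counts added as a prior) were taken for genes at 5 CPM or more in 1 library, with exact 95% intervals. All 29 members are named; of other lists, the 3 highest and lowest ratios and the first 3 markers, with a few neuronal and cell markers added after their values were seen. On simulated counts for the 5.5-week design (15729 genes), 38.8% of 1.5-fold, 88.1% of 2-fold and 100% of 4-fold changes were called, with 6 false calls. The labels call the replicates biological; p-values measure the spread between these libraries. Alternatives were DESeq2 1.42.0, limma-voom (limma 3.58.1), other scalings, filters, prior counts and sets of libraries; TMM within the week, 5 CPM in both libraries and the mean of a mock library with its repeat were added after seeing the data.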

Additional observations from a re-analysis of the deposited data

Results flagged for a closer look

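In the edgeR quasi-likelihood fit of the 9 libraries, the effect of cuprizone at 5 weeks was tested against that at 5.5 weeks, and it was lower for 10 members. On the log2 scale the differences of effect were -1.50 for Syt1, -1.51 for Syt2, -1.49 for Syt4, -1.44 for Syt5, -0.99 for Syt7 and -1.43 for Syt11. They were -2.45 for Syp, -2.50 for Sv2a, -2.15 for Sv2b and -4.40 for Sv2c. The comparison crosses the sequencing batches, and 1 library stands on each side at 5 weeks.

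The effect at 7 weeks against that at 5.5 weeks, within batch 2, was higher for Syt2 (1.39), Sv2c (1.32), Rab3b (1.79) and Pclo (1.76). It was lower for Snap25 (-0.87), Stx1a (-0.64), Vamp2 (-1.04), Syn1 (-0.83), Sv2b (-0.72), Rab3a (-0.67), Nsf (-1.12), Napa (-0.81) and Napb (-0.87). These rest on 1 cuprizone library that also holds interneuron, endothelial and microglial markers, whose part was not tested.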

How the results depend on the processing

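At 5.5 weeks 236 genes passed the threshold. The count was 543 with no filter, 398 with all 6 libraries of that week as deposited, 789 in a fit of all 17 libraries as deposited, and 65 to 274 when 1 library was left out. Members called were 0, with 0 to 1 when 1 library was left out (Rab3b without cuprizone replicate 2) and 1 in the fit of all 17 (Sv2b, 0.35, edgeR adjusted p 0.0346), which counts repeats as samples. Apart from the replicate block given next, the other settings gave 0 members. With the replicate number as a block, 750 genes and 1 member (Rab3b, -0.67, edgeR adjusted p 0.00375) were called. Deviations from the group mean in libraries with the same number had r = 0.04 for replicate 1 and -0.08 for replicate 3, across 16086 genes. With only 2 mock libraries their deviations mirror each other, so these values cannot tell whether the numbers pair the samples.

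At 7 weeks the fit of the 9 libraries called 18 members, against 7 by fold. In the fit of all 17 libraries 17 members differed between 5 and 5.5 weeks and 21 between 7 and 5.5 weeks. That fit counts repeats as samples, and 7302 and 9936 of its 22947 genes differed in the same comparisons. The summed level moved to -0.36 at 5 weeks and -0.30 at 7 weeks with library totals, and to -0.51 at 7 weeks without Snap25. No called value turned its direction under the settings run. With 1 library a side at 5 and 7 weeks, counting error is known and the spread between animals is not. Sv2c after cuprizone at 5 weeks rests on 15 counts.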

Other observations

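SNARE genes of broad expression, such as Snap23, Vamp3 and Stx4a, which serve fusion in most cells, had small ratios at 5 weeks. Of 15 measured, 1 was at least 2-fold higher and 0 were lower, where 7.92% and 13.0% of all genes were, with a median log2 ratio of 0.26. The highest was Stx2, at 9.49 CPM in mock and 19.97 after cuprizone. At 7 weeks 0 of 14 were higher and 1 lower, where 10.9% and 3.56% of all genes were, with a median of -0.74. The medians of the 4 member SNARE genes were -0.47 at 5 weeks and -0.92 at 7 weeks, and the difference between the lists was not tested.

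In the 8 libraries set aside as repeats, 61 of 232 member values lay more than 10 counts above the library repeated and 1, that of Rab3b in the repeat of the 5.5-week mock replicate 1, lay below it. The largest excess was in Cplx2 of the 7-week mock replicate 1, with 67881 counts against 46100 in replicate 3, 47.2% more. Napa and Nsf of the 7-week cuprizone replicate 1 had 42.7% and 42.6% more counts than replicate 2.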
